A study of Homo sapiens with 8 samples.

Results

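The screen counted single guide RNAs (sgRNAs) in genomic DNA of MB157R cells, and the results here concern the guides against 10 tyrosine kinases known to be bound by dasatinib: SRC, YES1, FYN, LYN, LCK, ABL1, ABL2, EPHA2, DDR1 and DDR2. The list of kinases was drawn up with earlier results of these data known. Guides were then taken by gene symbol alone, as every guide in the count table assigned to one of these genes. This gave 60 guides, 6 per gene, for 10 of the 18913 genes in the table. MB157R, a line of triple-negative breast cancer, became resistant to a γ-secretase inhibitor (GSI) through long exposure, and all libraries come from MB157R cells that express Cas9 and carry the human GeCKOv2 knockout library. The 3 GSI cultures were kept in 10 µM LY3039478 and the 3 DMSO cultures in solvent until day 14, and 2 T0 aliquots were taken after puromycin selection, before the pool was divided. Every library thus stems from 1 transduced pool of 1 resistant line, so p-values measure the spread between its cultures or aliquots. No culture received dasatinib, and the sensitive parent line was not screened, so the comparisons concern loss of single kinases under GSI or solvent.

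Dasatinib occupies the ATP pocket of Src family and ABL kinases, and it also binds several receptor kinases. SRC, YES1, FYN, LYN and LCK share a membrane anchor, SH3 and SH2 domains and a kinase domain that CSK holds inactive by phosphorylating the tail, and they pass signals from integrins, growth factor receptors and immune receptors. ABL1 and ABL2 link such signals to actin and the nucleus, EPHA2 is a receptor for ephrin-A ligands on neighbouring cells, and DDR1 and DDR2 are receptors for collagen. Dasatinib blocks several of these kinases together, whereas a guide cuts 1 gene and leaves its relatives in place. In a pooled knockout screen, cells that lose a gene they need become rarer and so does the guide, while the guide gains where the loss favours growth.

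On GRCh38 the Src family genes lie on chromosomes 20 (SRC), 18 (YES1), 6 (FYN), 8 (LYN) and 1 (LCK). ABL1 lies on chromosome 9, ABL2, EPHA2 and DDR2 on chromosome 1, and DDR1 on chromosome 6. The cut sites of the guides within these genes, and their sequences, were not analysed here. Guide counts carry no information on transcripts, so whether MB157R cells express each kinase, and the identity of the line, could not be checked in these data.

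Libraries held 12.9 M to 18.2 M counts (M, 1e+06) in GSI, 12.1 M to 15.5 M in DMSO and 15.2 M and 17.7 M in T0. In GSI replicate 1 a single guide against VPS33B took 38.8% of counts, and the median count of the 60 kinase guides there was 70.5, against 71 to 94.5 in the other 7 libraries. Of the 60 kinase guides, 1 to 2 had no counts in a GSI library and 2 to 3 had none in a DMSO library. In T0, 5 guides (8.33%) were at 0 in replicate 1 and 11 (18.3%) in replicate 2, against 5.12% and 11.5% of all guides in the table. Of the 12 kinase guides at 0 in at least 1 T0 library, 7 had counts in all 6 day 14 libraries. Counts are PCR reads without molecular identifiers. The counting intervals given below thus cover counting error only, and leave out PCR duplication and the spread between cultures or aliquots.

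The T0 aliquots also differed most between themselves. The median absolute log2 difference over the 59 kinase guides tested was 0.55 to 0.70 between pairs of GSI libraries, 0.71 to 1.03 between pairs of DMSO libraries and 1.5 between the T0 libraries. For all guides tested the same value was 0.62 to 0.70 in GSI, 0.78 to 0.83 in DMSO and 1.25 in T0. Of the 59 kinase guides, 14 to 20 differed by more than 2-fold between pairs of GSI libraries, 24 to 31 between pairs of DMSO libraries and 38 between the T0 libraries.

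**Figure D1:**
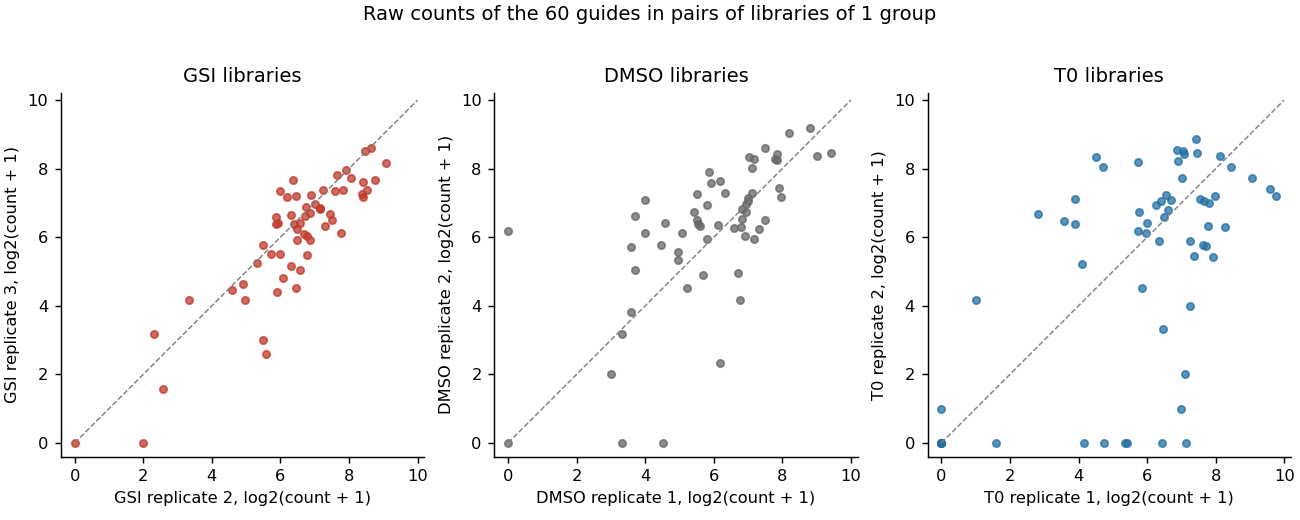
Raw counts of the 60 kinase guides, as log2(count + 1), in GSI replicates 2 and 3, DMSO replicates 1 and 2 and T0 replicates 1 and 2, with 1 point per guide and the dashed line marking equal counts. The T0 panel is the widest, with 11 guides on the horizontal axis at 0 in replicate 2.

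To ask whether loss of a dasatinib target changed the growth of resistant cells under the inhibitor, GSI cultures were compared with DMSO cultures. None of the 10 kinases was called. By robust rank aggregation (RRA), which asks whether the guides of a gene gather at one end of the ranking of all guides, 0 of 10 genes passed an adjusted p of 0.05 on either side, as did 0% of all 18570 genes tested. At an unadjusted p under 0.05, 1 kinase (EPHA2) lay on the lower side, where 5.05% of all genes did, and 0 lay on the higher side, where 5.01% did. Among the 59 guides, 0 passed the adjusted edgeR test (0% of all 116852 guides tested), 4 fell below 0 at an unadjusted p under 0.05 (1.48% of all guides) and 1 lay above (1.53%). The median log2 fold change over the 59 guides was -0.06, against -0.022 over all guides, and 35 guides were below 0 and 24 above.

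The gene medians of log2 fold change, GSI over DMSO, ran between -0.47 and 0.56. LYN (-0.47) and LCK (-0.40), kinases best known from B and T cells, and ABL1 (-0.34), the kinase fused to BCR in chronic myeloid leukaemia, stood lowest. YES1 (-0.14), ABL2 (-0.08) and FYN (0.0020), 3 widely expressed kinases, lay nearer the centre, as did EPHA2 (0.06). DDR2 (-0.20), a receptor for fibrillar collagens, and SRC (0.21) lay further out, at percentiles 25.5 and 79.2 among all genes. DDR1, the collagen receptor of epithelial cells, had the highest median at 0.56, with 1 of its 6 guides below 0. Leaving out a single library turned the sign of LYN (0.10 without DMSO replicate 1) and LCK (0.25 without DMSO replicate 3). It also turned those of YES1, ABL2, FYN, EPHA2 and SRC, to values between -0.14 and 0.33, while ABL1, DDR1 and DDR2 stayed on 1 side. By percentile among all genes, LYN was at 4.81, LCK at 8.37, ABL1 at 12.1 and DDR1 at 96.7. The lowest adjusted RRA p of the 10 kinases on either side was 0.973 (EPHA2).

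**Figure D2:**
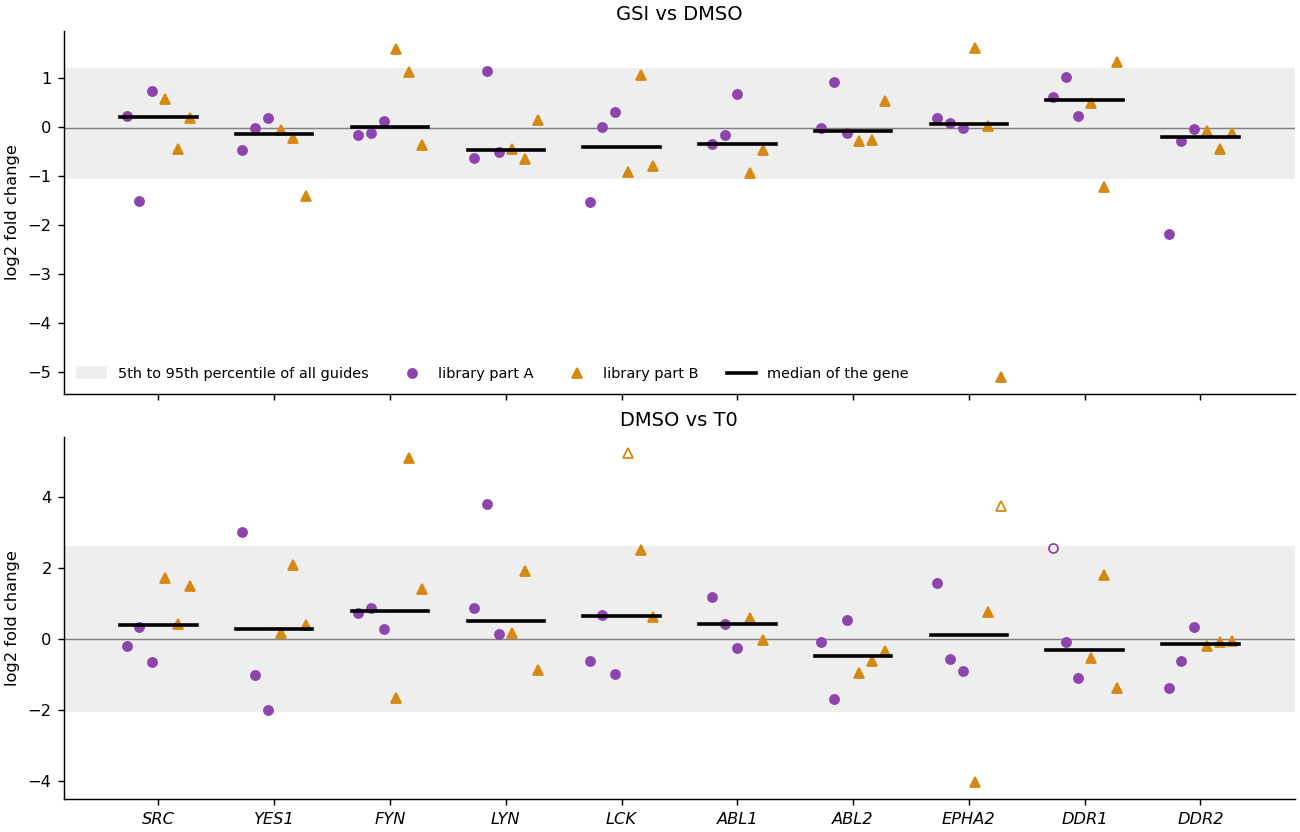
Log2 fold change of each guide by kinase gene in GSI vs DMSO (top) and DMSO vs T0 (bottom), with circles for guides of library part A, triangles for part B, black bars for gene medians and the grey band for the 5th to 95th percentile of all guides. Open symbols are lower bounds on the fold of the DMSO mean, for guides at 0 in both T0 libraries. In the top panel the medians lie between -0.47 (LYN) and 0.56 (DDR1), and the EPHA2 guide far below the others had 3 counts in all GSI libraries together.

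Per library, the level of a gene was the mean over its guides of log2(normalized count + 1), where a normalized count is the raw count divided by a median-ratio size factor. This level also holds the share each guide had in the starting library, so it was compared between groups and not between genes. DDR1 had levels of 6.30, 6.51 and 5.56 in GSI replicates 1 to 3, against 5.16, 5.60 and 5.27 in DMSO replicates 1 to 3. GSI replicate 3 lay below DMSO replicate 2, so the groups overlapped. The difference of 0.78 (95% interval 0.11 to 1.44) had an unadjusted limma p of 0.0261 and an adjusted p of 0.941. Over leaving out single libraries it ran from 0.58 (without GSI replicate 2) to 1.06 (without GSI replicate 3). Guides at or near 0 in some DMSO libraries entered the DDR1 level. HGLibB_12620 had 51.2, 124 and 83.5 normalized counts in GSI, against 13.1, 87.6 and 1.14 in DMSO. HGLibA_12632 had 29.6, 37.3 and 5.22 in GSI, against 9.86, 0 and 37.6 in DMSO. Of the 6 DDR1 guides 1 had a fold change below 0, and the level without single guides was not tested.

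For the other 9 kinases the interval of the GSI minus DMSO difference in level contained 0. How many of all genes have an interval that leaves out 0 was not counted. Within the Src family the differences were 0.15 for SRC (interval -0.44 to 0.75), -0.33 for YES1 (-1.01 to 0.35), 0.39 for FYN (-0.20 to 0.99), 0.03 for LYN (-0.70 to 0.76) and -0.23 for LCK (-0.86 to 0.39). They were -0.15 for ABL1 (-0.75 to 0.44) and 0.19 for ABL2 (-0.43 to 0.80), and for the receptors -0.15 for EPHA2 (-0.79 to 0.49) and -0.22 for DDR2 (-0.83 to 0.40). The outermost bounds among these 9 were -1.01 for YES1 and 0.99 for FYN. The level passed an adjusted limma p of 0.05 in 0 of 10 kinases (0% of all genes), and the groups did not overlap in 0 of 10, against 2.90% of all genes for lower and 7.13% for higher levels in GSI.

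**Figure D3:**
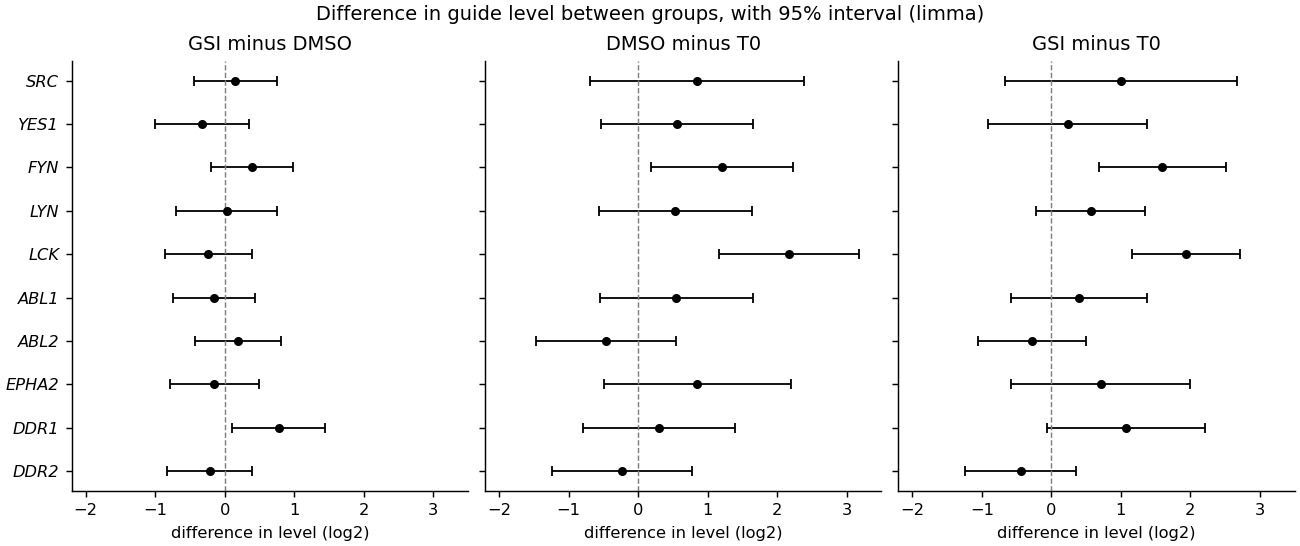
Difference in guide level per kinase gene, on the log2 scale, for GSI minus DMSO, DMSO minus T0 and GSI minus T0, with points for the limma estimate and bars for its 95% interval. In GSI minus DMSO the interval of DDR1 (0.11 to 1.44) is the one that leaves out 0. In both comparisons with T0 those of FYN and LCK leave out 0. The share of all genes whose interval leaves out 0 was not counted in any comparison.

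EPHA2, the ephrin-A receptor, had the lowest RRA p on the lower side (0.0369 before adjustment, 0.973 after), while its median fold change was 0.06, on the other side of 0. The lower-side rank rested on 1 guide. HGLibB_15269 had raw counts of 0, 3 and 0 in GSI replicates 1 to 3, against 0, 71 and 37 in DMSO replicates 1 to 3 (edgeR adjusted p = 1). Per unit of size factor, GSI held 0.0272 of the DMSO count (95% counting interval 0.00553 to 0.0817), yet DMSO replicate 1 was also at 0, as were both T0 libraries, so the groups overlapped.

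The other EPHA2 guides did not share this pattern. HGLibA_15289 had 132, 102 and 131 normalized counts in GSI, against 173, 67.7 and 77.5 in DMSO. HGLibA_15291 had 339, 180 and 173 in GSI and 249, 272 and 179 in DMSO, and HGLibB_15268 had 80.8, 120 and 172 in GSI and 138, 127 and 100 in DMSO. The log2 fold changes of HGLibA_15289, HGLibA_15290, HGLibA_15291 and HGLibB_15268 lay between -0.02 and 0.19. HGLibB_15267, a sparse guide with 8.08, 7.15 and 17.8 normalized counts in GSI against 7.67, 2.71 and 0 in DMSO, had the highest value of the gene at 1.62. The SD over the 6 EPHA2 guides was 2.32, against a median of 0.595 and a 95th percentile of 1.23 over all genes with 6 tested guides.

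The other guides lower at an unadjusted p under 0.05 targeted YES1, SRC and DDR1, and every kinase guide had an adjusted p of 1 in this comparison. HGLibB_54595, against YES1, a close relative of SRC, had 57.9, 41.3 and 47.0 normalized counts in GSI, against 65.7, 172 and 148 in DMSO (log2 fold change -1.40). HGLibA_46928, against SRC, had 55.2, 46.9 and 20.9 in GSI, against 77.8, 180 and 90.0 in DMSO (log2 fold change -1.50). For both guides every GSI library lay below every DMSO library, and no other guide of YES1 or SRC reached an unadjusted p under 0.05. Like other guides named here for a low p, they were picked from the same comparison. The share of all guides whose groups do not overlap was not counted in any comparison. HGLibB_12619, against DDR1, had 92.9, 75.5 and 33.4 in GSI and 151, 235 and 83.2 in DMSO (log2 fold change -1.22), opposite to the other 5 DDR1 guides, whose values ran from 0.22 to 1.33.

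On the higher side FYN, an Src family kinase of many tissues, had the lowest RRA p (0.122 before adjustment, 0.982 after). HGLibB_18228 had 66.0, 94.6 and 157 normalized counts in GSI, against 55.9, 26.2 and 21.6 in DMSO (log2 fold change 1.6). HGLibB_18229 had 35.0, 82.6 and 101 in GSI and 23.0, 48.7 and 27.3 in DMSO (1.14). The other 4 FYN guides had log2 fold changes of -0.36 to 0.13, and 3 of the 6 were below 0, so the gene was split between its guides.

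The next guides on the higher side were against DDR1 and LCK. HGLibA_12633, against DDR1, had 121, 161 and 234 normalized counts in GSI and 16.4, 122 and 115 in DMSO (log2 fold change 1.02). HGLibB_26117, against LCK, which starts T cell receptor signalling, had 71.4, 113 and 120 in GSI and 51.5, 71.3 and 22.8 in DMSO (1.06). In the LCK guide the lowest GSI value and the highest DMSO value lay next to each other at 71.4 and 71.3.

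Guides of the kinases with the lowest medians were spread as well. For LYN, 4 of 6 guides were below 0, from -0.64 to 1.14 over all 6. Its guide HGLibB_27666 had 86.2, 74.7 and 87.7 normalized counts in GSI, against 158, 55.1 and 174 in DMSO, and HGLibA_27706 had 108, 68.3 and 152 in GSI, against 134, 95.7 and 275 in DMSO, with overlap in both. For LCK, guides ran from -1.54 to 1.06, with 4 of 6 below 0. HGLibA_26153 was the lowest of them, at 25.6, 3.97 and 2.09 in GSI, against 12.1, 46.9 and 31.9 in DMSO, where GSI replicate 1 lay above DMSO replicate 1.

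ABL1 had 4 of 5 tested guides below 0, from -0.94 to 0.68. The most abundant, HGLibB_00302, had 377, 267 and 203 normalized counts in GSI, against 562, 298 and 301 in DMSO (log2 fold change -0.46), and the groups overlapped. DDR2 was the kinase with all 6 guides below 0, but 5 of them lay between -0.45 and -0.04. Its most abundant guide, HGLibB_12621, had 245, 213 and 218 in GSI, against 241, 281 and 194 in DMSO (-0.09). The lowest, HGLibA_12635, at -2.17, had 6.73, 3.18 and 8.35 in GSI, against 77.8, 3.61 and 1.14 in DMSO, a value that rested on DMSO replicate 1.

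To ask which kinases mattered for growth without the inhibitor, DMSO cultures, the same that served against GSI, were compared with T0. No kinase was called as depleted or enriched: 0 of 10 genes passed an adjusted RRA p of 0.05, as did 6 of all genes (0.0323%). Those 6, with GAPDH and RPL37A among them, were all lower and had median log2 fold changes of -4.26 to -2.21, whereas the lowest kinase, ABL2, an actin-regulating kinase, was at -0.48. At an unadjusted p under 0.05, 0 kinases were lower (6.13% of all genes) and 2 were higher (5.30%), YES1 and LCK. Of the 59 guides, 0 passed the adjusted edgeR test (0% of all guides), 1 was lower at an unadjusted p under 0.05 (3.57%) and 3 were higher (4.18%). The median over the 59 guides was 0.16, against -0.00039 over all guides, with 27 below 0 and 32 above.

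By gene, the medians of log2 fold change in DMSO over T0 put FYN at 0.79, LCK at 0.64, LYN at 0.51, SRC at 0.38 and YES1 at 0.28. ABL1 was at 0.40, EPHA2 at 0.10, DDR2 at -0.13, DDR1 at -0.31 and ABL2 at -0.48. None of these was called, and they moved with the T0 library used. Without T0 replicate 2 SRC was at -0.29, ABL1 at -0.25, EPHA2 at -0.30, DDR1 at 1.32 and DDR2 at 0.16, all on the other side of 0, and without T0 replicate 1 these 5 were at 1.89, 1.26, 0.62, -0.24 and -0.38. Without T0 replicate 1 FYN was at 1.09, LYN at 0.53, YES1 at 0.16 and ABL2 at -0.60, and without T0 replicate 2 they were at 0.42, 0.75, 1.51 and -0.07. For LCK the fitted medians were 3.94 and 1.70 without T0 replicates 1 and 2. The fitted fold of HGLibB_26116, at 0 in both T0 libraries, is no bound, but a median of 6 guides does not take in the highest value. Each of these fits rests on 1 T0 library, where other LCK guides were sparse too. HGLibB_26117 had 0.837 normalized counts in T0 replicate 1 and HGLibA_26154 had 0.949 in T0 replicate 2. HGLibB_26118 was at 0 in T0 replicate 2, so without T0 replicate 1 its fitted fold is no bound either.

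LCK showed the largest difference in level between day 14 and T0 among the 10 kinases. Its level was 5.04, 5.62 and 5.86 in DMSO replicates 1 to 3 (5.50 ± 0.42, SD, n = 3), against 3.42 and 3.24 in T0 (3.33 ± 0.13, SD, n = 2). The groups did not overlap, and the difference of 2.17 (95% interval 1.17 to 3.18) had an adjusted limma p of 0.109. Without T0 replicate 1 the difference was 2.26, and without T0 replicate 2 it was 2.08. A fit with 1 T0 library left, here and below, does not measure the spread between T0 aliquots.

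Part of the LCK value came from 1 guide. HGLibB_26116 had 25.2, 75.8 and 199 normalized counts in DMSO and 0 in both T0 libraries (edgeR adjusted p = 0.503). With each T0 library set to a floor of 3 counts, its DMSO mean was at least 37.4-fold higher. Without this guide, left out after its counts were seen, the LCK difference was 1.37 (0.41 to 2.32, adjusted p = 0.175) and the groups still did not overlap. The T0 libraries went apart for other LCK guides: HGLibA_26155 had 50.4, 74.9 and 80.9 in DMSO, against 20.9 and 251 in T0, and HGLibA_26154 had 124, 83.1 and 47.8 in DMSO, against 106 and 0.949 in T0.

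FYN also had separate groups, with levels of 6.15, 6.55 and 6.04 in DMSO, against 5.45 and 4.63 in T0. The difference was 1.21 (0.18 to 2.23, adjusted p = 0.25). It was 1.62 without T0 replicate 1 and 0.79 without T0 replicate 2. HGLibB_18229 carried much of it, with 23.0, 48.7 and 27.3 normalized counts in DMSO and raw counts of 2 and 0 in T0, a ratio of 38.4 (95% counting interval 10.4 to 322). Without this guide the FYN difference was 0.58 (-0.41 to 1.58).

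Levels did not overlap between DMSO and T0 in 2 of 10 kinases for higher values, FYN and LCK, where 24.2% of all genes did so, and in 0 of 10 for lower values (8.67%). Of the 10 levels, 0 passed an adjusted limma p of 0.05 (0% of all genes). Without T0 replicate 1, where 18.8% of all genes were called, the adjusted test called SRC (difference 2.22, adjusted p = 0.00873), FYN, LCK and EPHA2 (1.83, adjusted p = 0.0270), all higher in DMSO. Without T0 replicate 2, where 1.86% of all genes were called, it called 0 of 10. SRC had levels of 6.04, 5.65 and 6.06 in DMSO, against 6.44 in T0 replicate 1 and 3.7 in T0 replicate 2, and EPHA2 had 5.22, 6.04 and 5.17 in DMSO, against 5.60 and 3.64. T0 replicate 2 lay below every DMSO library for both kinases, while T0 replicate 1 lay above all DMSO libraries for SRC and within their range for EPHA2.

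**Figure D4:**
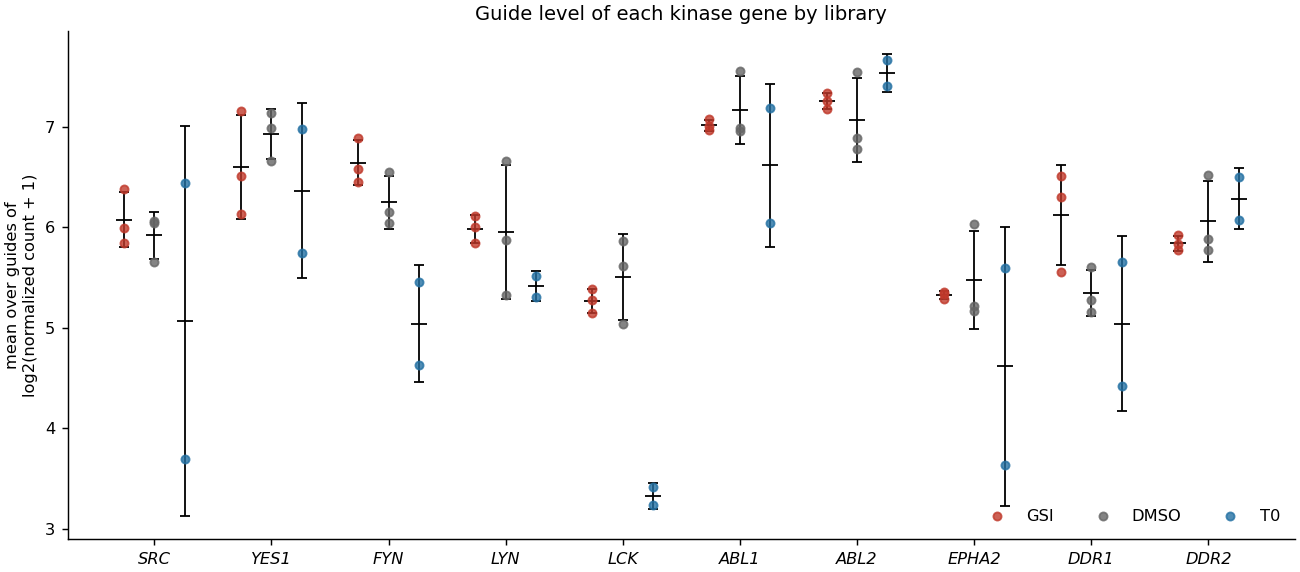
Guide level of each kinase gene, the mean over its guides of log2(normalized count + 1), per library in GSI (red), DMSO (grey) and T0 (blue), with the mean and SD in black. LCK in T0 lies at 3.42 and 3.24, below all day 14 libraries, and SRC and EPHA2 show T0 libraries far apart.

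YES1 held both ends of the guide ranking against T0. HGLibA_54660 had 747, 319 and 330 normalized counts in DMSO, against 51.9 and 64.5 in T0 (log2 fold change 3.0, adjusted p = 0.488), and all DMSO libraries exceeded both T0 libraries. HGLibA_54662 had 46.0, 95.7 and 36.5 in DMSO, against 146 and 332 in T0 (-2.01, adjusted p = 0.584), and here all DMSO libraries lay below both T0 libraries. Guides to the same gene thus moved to opposite sides, and the RRA p was 0.0151 on the higher side (adjusted 0.880) and 0.230 on the lower side, the lowest of the 10 kinases on each.

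The remaining YES1 guides lay between these. HGLibB_54594 had 119, 69.5 and 116 normalized counts in DMSO, against 13.4 and 34.2 in T0 (2.09, adjusted p = 0.693). HGLibA_54661 had 105, 68.6 and 70.6 in DMSO, against 18.4 and 308 in T0 (-1.01), so its T0 libraries enclosed the DMSO values. HGLibB_54593 was at 0.16 and HGLibB_54595 at 0.39. The YES1 level was 7.14, 6.98 and 6.65 in DMSO and 5.75 and 6.98 in T0, a difference of 0.56 (-0.53 to 1.66). It was -0.05 without T0 replicate 1 and 1.18 without T0 replicate 2.

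The next guides by p in DMSO over T0 were against EPHA2 and ABL2. HGLibB_15269, the EPHA2 guide that was low in GSI, had 0, 71 and 37 counts in DMSO and 0 in both T0 libraries, at least 13.2-fold higher on average in DMSO (adjusted p = 0.619), although DMSO replicate 1 was at 0 as well. HGLibB_15267, also against EPHA2, had 7.67, 2.71 and 0 normalized counts in DMSO, against 115 and 2.85 in T0 (log2 fold change -4.04, adjusted p = 0.692). HGLibA_00305, against ABL2, had 32.9, 41.5 and 68.3 in DMSO, against 187 and 121 in T0 (-1.69, adjusted p = 0.683), with no overlap.

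GSI cultures were also compared with T0, a comparison that shares the T0 libraries with the one above and the GSI libraries with the first. Again 0 of 10 kinases passed an adjusted RRA p of 0.05 (0% of all genes). At an unadjusted p under 0.05, 0 were lower (5.68%) and 2 were higher (5.39%), YES1 (adjusted p = 0.914) and LCK (adjusted p = 0.914). The YES1 median was -0.43 although its test fell on the higher side, since HGLibA_54660 (463, 341 and 210 normalized counts in GSI, against 51.9 and 64.5 in T0) ranked near the top at 2.55. Of 59 guides, 0 passed the adjusted edgeR test (0%), 2 were lower at an unadjusted p under 0.05 (3.80%) and 5 were higher (4.82%). The median over the guides was 0.04, and 0 with guides at 0 in T0 set to their bounds and the EPHA2 guide HGLibB_15269, which was under the floor in both groups, to no change.

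By gene, the GSI over T0 medians were 0.07 for SRC, 0.67 for FYN, 0.0069 for LYN and 0.26 for LCK, and 0.28 for ABL1 and -0.42 for ABL2. The receptors were at 0.29 for DDR1, -0.38 for DDR2 and 0.18 for EPHA2, where the last became -0.23 with HGLibB_15269 at no change. Without T0 replicate 1 the medians were 1.79 for SRC, 1.12 for FYN, 0.03 for LYN, 0.82 for ABL1, -0.19 for ABL2, 1.33 for EPHA2, -0.45 for DDR2 and -0.55 for YES1, and DDR1 turned to -0.30. Without T0 replicate 2 SRC (-0.50), EPHA2 (-0.14), DDR2 (0.03) and YES1 (1.07) turned, and FYN was at 0.52, LYN at 0.21, ABL1 at 0.12, ABL2 at -0.05 and DDR1 at 1.49. The fitted LCK medians were 4.49 and 1.10 without T0 replicates 1 and 2. The medians thus depended on which T0 library was used. EPHA2 guide HGLibB_15267 had 8.08, 7.15 and 17.8 normalized counts in GSI, against 115 and 2.85 in T0 (log2 fold change -2.39, adjusted p = 0.734), so T0 enclosed the GSI values. YES1 guide HGLibA_54662 had 123, 53.2 and 28.2 in GSI, against 146 and 332 in T0 (-1.80, adjusted p = 0.557), with no overlap. The other YES1 guides were HGLibB_54594 at 1.90, HGLibB_54593 at 0.13, HGLibB_54595 at -0.99 and HGLibA_54661 at -0.99.

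LCK had levels of 5.39, 5.27 and 5.15 in GSI (5.27 ± 0.12, SD, n = 3), against 3.42 and 3.24 in T0, a difference of 1.94 (1.16 to 2.72, adjusted p = 0.115). It was 2.03 without T0 replicate 1 and 1.85 without T0 replicate 2. HGLibB_26116 had 68.7, 35.0 and 56.4 normalized counts in GSI and 0 in T0, at least 19.9-fold higher on average. Without this guide the LCK difference was 1.19 (0.40 to 1.97, adjusted p = 0.155). A second LCK guide, HGLibB_26117, had 71.4, 113 and 120 in GSI, against 0.837 and 16.1 in T0 (log2 fold change 3.59, adjusted p = 0.517).

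FYN had levels of 6.45, 6.58 and 6.89 in GSI, against 5.45 and 4.63 in T0 (difference 1.6, 0.69 to 2.51, adjusted p = 0.128). HGLibB_18229 stood at 35.0, 82.6 and 101 normalized counts in GSI, against raw counts of 2 and 0 in T0 (ratio 86.3, counting interval 23.6 to 717, adjusted p = 0.478). Without that guide the FYN difference was 0.84 (-0.02 to 1.71). Over all guides it was 2.01 without T0 replicate 1 and 1.19 without T0 replicate 2.

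LYN was also separate, at 6.00, 5.84 and 6.11 in GSI, against 5.31 and 5.52 in T0 (difference 0.57, -0.21 to 1.35, and 0.46 and 0.67 without T0 replicates 1 and 2). Its guide HGLibA_27707 held 8, 44 and 7 raw counts in GSI and 0 and 1 in T0. Levels thus did not overlap for higher values in 3 of 10 kinases (FYN, LYN and LCK), against 30.5% of all genes, and for lower values in 2 of 10, against 7.23%.

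The 2 kinases with lower levels in GSI than in T0 were ABL2 and DDR2. ABL2 had 7.34, 7.25 and 7.17 in GSI, against 7.40 and 7.66 in T0 (difference -0.28, -1.06 to 0.50), and DDR2 had 5.77, 5.83 and 5.92 in GSI, against 6.50 and 6.07 in T0 (-0.44, -1.24 to 0.36). Both intervals contained 0. Without T0 replicates 1 and 2 the difference was -0.41 and -0.15 for ABL2, and -0.23 and -0.66 for DDR2. Over the 10 kinases 0 levels passed the adjusted limma test (0% of all genes), and without T0 replicate 1 those of SRC, FYN, LCK, ABL1 and EPHA2 did, all higher in GSI, where 35.7% of all genes were called. Without T0 replicate 2 those of LCK and DDR1 did, also higher, where 10.4% of all genes were called.

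ABL2 had the lowest RRA p of the kinases on the lower side of GSI over T0 (0.158, adjusted 0.993). HGLibB_00304 had 52.5, 66.7 and 86.7 normalized counts in GSI, against 43.5 and 279 in T0 (-1.21), and HGLibB_00305 had 108, 84.2 and 122 in GSI, against 99.6 and 283 in T0 (-0.85). In both guides T0 replicate 2 was high and T0 replicate 1 lay within or near the GSI values. HGLibA_00305 had 106, 62.0 and 104 in GSI, against 187 and 121 in T0 (-0.74), and HGLibA_00304, HGLibA_00306 and HGLibB_00306 were at -0.10, 0.42 and 0.22.

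The guide with the lowest p on the lower side of GSI over T0 was against DDR2. HGLibA_12635 had 6.73, 3.18 and 8.35 normalized counts in GSI, against 44.3 and 99.7 in T0 (log2 fold change -3.53, adjusted p = 0.510), with no overlap. In DMSO the same guide had 77.8, 3.61 and 1.14, so DMSO replicate 1 lay within the T0 values and the other DMSO libraries lay at or near the low GSI values. The other 5 DDR2 guides had log2 fold changes in GSI over T0 of -0.90 to 0.32. HGLibA_12632, against DDR1, had 29.6, 37.3 and 5.22 normalized counts in GSI and 0 in both T0 libraries (at least 8.98-fold higher on average, adjusted p = 0.495). Its counts in DMSO were 9.86, 0 and 37.6.

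The kinase guides divide evenly between the parts of the library, 30 in A and 30 in B, and the parts were set side by side. The median log2 fold change in GSI over DMSO was -0.02 over the 30 part A guides and -0.21 over the 29 tested part B guides, against 0.03 and -0.08 for all guides of those parts. In DMSO over T0 it was 0.02 in part A and 0.39 in part B (all guides -0.04 and 0.05), and in GSI over T0 0.19 and -0.02. The order of the parts thus differed between comparisons. One part B guide against ABL1, HGLibB_00303, had 9 counts in DMSO replicate 3 and 0 in every other library, and was not tested.

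The 8 lists of genes around these kinases, 82 tested genes in all, gave no call in any comparison. In GSI over DMSO 6 of 82 lay on the lower side and 5 on the higher side at an unadjusted RRA p under 0.05, shares to be read against 5.05% and 5.01% of all genes. Among regulators of Src, CBL, a ubiquitin ligase that acts on active kinases, was at -0.37 (adjusted p = 0.973) and PTPRC, the CD45 phosphatase of blood cells, at 0.91 (higher side, adjusted p = 0.880). Of the 6 other Src-related kinases 0 reached an unadjusted p under 0.05, with PTK6 lowest at -0.66 (adjusted p = 0.988).

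Around the receptors, COL1A1, a collagen chain that both DDR kinases bind, had a median of -0.99 in GSI over DMSO (lower side, adjusted p = 0.957), and COL4A1 -0.14 (adjusted p = 0.965). EPHA1, an Eph receptor related to EPHA2, was at -0.81 (adjusted p = 0.965). EFNB3, an ephrin of the B class and not one of the ephrin-A ligands, was at -0.47 (adjusted p = 0.965). Around ABL, WASF2, which drives actin branching, had guides at both ends of the ranking, with an unadjusted RRA p of 0.00668 on the lower and 0.0291 on the higher side and a median of 0.27. RIPK2, another kinase bound by dasatinib, was at 0.60 (higher side, adjusted p = 0.935), and DOK1, an adaptor that Src and ABL kinases phosphorylate, at 0.55 (adjusted p = 0.968).

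In DMSO over T0, 8 of 82 list genes lay on the lower side and 3 on the higher side by unadjusted RRA p, against 6.13% and 5.30% of all genes. The adhesion substrates and adaptors had 3 of 12 on the lower side and a median of gene values of -0.51, against 0.0031 for all genes. Among them CRK, an SH2 and SH3 adaptor of ABL, was at -0.95 (adjusted p = 0.413) and PTK2, the focal adhesion kinase that recruits SRC, at -0.81 (adjusted p = 0.454). NCKAP1, a subunit of the WAVE complex, was at -1.95 (adjusted p = 0.365) and MAPK14, the p38α kinase, at -1.56 (adjusted p = 0.503). On the higher side FGR, an Src family kinase of myeloid cells, was at 1.71 (adjusted p = 0.793). None of these passed the adjusted test. The lists were chosen with earlier results of these data known, so the low median of the adhesion list is no independent result. List values without single T0 libraries were not computed.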

How the data were processed

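The authors' processing notes name bcl2fastq 2.19 for adapter trimming, FastQC 0.11.5 for read quality and MAGeCK 0.5.9.2 for counting guides of GeCKOv2 parts A and B. The deposited count table holds raw read counts per guide and library. The deposited normalized table is the same counts times 1 constant per library and was not used here. MAGeCK's own test was not run.

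R 4.3.3 was used. Guides whose mean count was at least 10 over 8 libraries were tested (116852 of 119461), with edgeR 4.0.16 (glmQLFit, glmQLFTest) on median-ratio size factors, each fit holding the 2 groups compared. RRA was rewritten with an exact null (alpha 0.25) for genes with at least 4 tested guides, without microRNA and non-targeting guides. Gene levels used log2(normalized count + 1) and limma 3.58.1. Benjamini-Hochberg adjustment ran over all guides or genes, with calls at 0.05. The scripts were tested on simulated data. DESeq2 1.42.0, other size factors, filters, the replicate block and leaving out libraries served as alternatives. The members and lists were chosen with earlier results of these data known. The rule for named items takes all 10 kinases, for every comparison the 3 guides of lowest p per side, all guides of the kinases of lowest RRA p, and up to 2 genes per list and side. Others are named where a count or contrast needed them, after their values were seen. Gene positions come from GENCODE v44 (GRCh38).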

Additional observations from a re-analysis of the deposited data

How the results depend on the processing

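No kinase was called by RRA under any alternative run, and in GSI over DMSO no kinase guide or level was called either. Against T0, DESeq2 called 3 kinase guides in DMSO (5.66% of all guides) and 6 in GSI (6.76%), where edgeR called 0. Leaving out single libraries gave 0 to 5 guides in DMSO over T0 and 0 to 13 in GSI over T0. Both highest counts came without T0 replicate 1 (7.10% and 18.0% of all guides), and 5 guides were called in GSI over T0 without T0 replicate 2 (4.70%). Called levels ran from 0 to 4 in DMSO over T0 and from 0 to 5 in GSI over T0. With a single T0 library left, that library is assumed to vary like the others. The cause of these changes was not tested.

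The median over kinase guides in GSI over DMSO was -0.27 with library totals, a scaling that moved the median of all guides to -0.22, and -0.15 to 0.04 without single libraries. In DMSO over T0 it was 0.22 with library totals, -0.10 with non-targeting controls (all guides -0.27), 0.22 without a filter, 0.026 at a mean count of at least 50, and 0.15 to 0.51 without single libraries. In GSI over T0 it was -0.09 with library totals (all guides -0.16), -0.20 with non-targeting controls (all guides -0.24) and 0.011 to 0.55 without single libraries. Gene values changed sign in 17 of 160 kinase and alternative pairs in GSI over DMSO, with ABL1, DDR1 and DDR2 on 1 side throughout. They did so in 8 of 150 in DMSO over T0 and in 19 of 150 in GSI over T0. The pairs include an RRA alpha of 0.1, which leaves every median unchanged. They also include counts summed per gene, whose value is not a median over guides.

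Same-numbered GSI and DMSO libraries deviated together with r = 0.28, 0.064 and 0.12, so the numbers were not taken as pairs. In these deviations, though, every GSI and DMSO library correlated best with its own number. Without removing group means, GSI replicate 1 and DMSO replicate 1 had a correlation (rho) of 0.818 over all guides, above the 0.733 of GSI replicates 1 and 2. GSI replicate 2 was at 0.659 with DMSO replicate 1 and 0.647 with DMSO replicate 2. GSI replicate 3 was highest with its own number, at 0.672 with DMSO replicate 3. It was at 0.641 with DMSO replicate 1 and 0.644 with DMSO replicate 2. A shared origin of same-numbered libraries was not tested. With the replicate block the kinase median was -0.07 in GSI over DMSO, 0.37 in DMSO over T0 and 0.39 in GSI over T0 (all guides 0.03, 0.17 and 0.21), and no kinase guide, gene or level was called. In GSI over DMSO the block put the DDR1 median at 0.86, with a higher-side RRA p of 0.0105 before adjustment and 0.909 after. Without the block that RRA p was 0.140 before adjustment. Of the 60 kinase guides, 11 were at 0 in T0 replicate 2, and the part of this in the comparisons with T0 was not tested.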
